A study of Mus musculus with 9 samples.

Results

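The 10 genes described here are the Notch receptors Notch1, Notch2, Notch3 and Notch4, the ligands Jag1, Jag2 and Dll4, and the target genes Hey1, Heyl and Hes1. They were taken by gene symbol from the 24453 genes in the deposited table, each symbol matched 1 row, and 9 of the 10 passed the filter on low counts. RNA sequencing covered 3 groups of mouse liver cells with 3 libraries each, and every library held cells pooled from several animals. HSCs (hepatic stellate cells) were density-gradient cells of healthy livers from untreated wild-type C57BL/6J mice, and they carried no reporter and were not sorted. The authors report a high purity of these cells, judged by cell shape and UV autofluorescence. CCl4-fib were CD45- GFP+ cells sorted from Col1a2-GFP Tg mice that received CCl4 (carbon tetrachloride) by intraperitoneal injection in olive oil, 2 times per week for 8 weeks. NASH-fib were CD45- GFP+ cells of MC/COL mice, which carry the same Col1a2-GFP transgene on the MC4R-KO background. These males, 8 weeks old at the start, received Western diet (WD) over 20 weeks. The ages of the other mice are not given in the sources used here. The GFP reporter is driven by the promoter of the collagen gene Col1a2, so a cell enters the sorted groups only if that promoter is active. Injury, reporter and sorting change together between HSCs and the fibroblast groups, and diet and MC4R genotype change together between NASH-fib and the other groups. Between NASH-fib and CCl4-fib, the injections of CCl4 in olive oil and the length of treatment (20 against 8 weeks) change as well. These factors cannot be told apart here.

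Notch signaling passes between touching cells. A ligand of the Jagged or Delta-like family on one cell pulls on a Notch receptor of its neighbour, ADAM proteases and then the gamma-secretase complex cut the receptor, and the freed intracellular domain joins the DNA-binding protein RBPJ to switch on genes of the Hes and Hey families. In blood vessels Dll4, Notch1 and Notch4 are known as endothelial genes and Notch3 as the receptor of vascular smooth muscle cells and pericytes, while Jag1 and Notch2 are known in the liver for their part in bile duct formation.

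The promoters of Notch3, which was higher in the fibroblast groups, and of Notch1, Dll4 and Notch4, which were lower in CCl4-fib, are shown because their RNA carries the main differences below and its annotated starts lie in these windows. Each line runs 5′ to 3′ on the gene's own strand from 250 bases before the RefSeq start to 10 bases after it, on GRCm38.p6, the assembly called mm10 in the deposited data. Capitals mark the GC box GGGCGG and the AP-1 motif TGANTCA on either strand.
Notch3 (chr17:32166881-32167140, minus strand): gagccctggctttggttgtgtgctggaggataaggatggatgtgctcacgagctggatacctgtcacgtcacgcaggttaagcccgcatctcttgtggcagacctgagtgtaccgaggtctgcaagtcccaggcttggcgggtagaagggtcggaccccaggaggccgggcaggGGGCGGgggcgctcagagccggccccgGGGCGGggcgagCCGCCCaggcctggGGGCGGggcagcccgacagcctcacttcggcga
Notch1 (chr2:26503813-26504072, minus strand): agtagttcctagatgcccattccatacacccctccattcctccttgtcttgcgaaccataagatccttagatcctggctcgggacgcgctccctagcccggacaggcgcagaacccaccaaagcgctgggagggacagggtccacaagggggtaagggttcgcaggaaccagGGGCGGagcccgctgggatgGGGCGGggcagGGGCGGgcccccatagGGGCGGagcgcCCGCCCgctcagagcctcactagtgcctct
Dll4 (chr2:119325534-119325793, plus strand): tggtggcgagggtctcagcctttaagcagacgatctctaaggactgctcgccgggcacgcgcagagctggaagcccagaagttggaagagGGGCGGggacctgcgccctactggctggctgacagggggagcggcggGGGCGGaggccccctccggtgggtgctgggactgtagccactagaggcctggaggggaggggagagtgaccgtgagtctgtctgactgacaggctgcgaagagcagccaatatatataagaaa
Notch4 (chr17:34564045-34564304, plus strand): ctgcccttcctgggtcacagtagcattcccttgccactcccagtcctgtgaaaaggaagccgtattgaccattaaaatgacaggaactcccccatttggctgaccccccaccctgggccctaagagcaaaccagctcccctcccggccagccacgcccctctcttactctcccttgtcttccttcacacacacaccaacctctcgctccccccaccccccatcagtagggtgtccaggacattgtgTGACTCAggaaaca
RefSeq promoter windows of 300 bases, 50 of them after the start, were matched for 7 of the 10 genes, all but Hey1, Heyl and Hes1. The GC box was found 4 times in the Notch3 window, 5 times in that of Notch1 and 2 times in that of Dll4, and in 5 of the 7 windows in all, against 35.7% of 32851 mouse promoter windows. Notch4 held no GC box but 1 AP-1 motif that spans its start, a motif held by 7.81% of all windows and by none of the other 6. The core letters TGGGAA of the RBPJ site were in 0 of the 7 windows and in 25.6% of all windows. These are matches of letters in short windows and were not tested for binding.

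A value below is a scaled read count, the number of reads on the gene's exons brought to a common library total of 4471990 or close to it. Reads on genes numbered between 3071070 and 5634273 per library, and 1 read was worth 0.794 to 1.46. The floor was set at 3 reads per library. A fold against a group with no read at all sets the mean of the other group against this floor. It covers the counting error of the group without reads only. A fold against a group with 1 read in all is a ratio with a counting interval, which covers counting error only. Intervals of log2 fold changes come from the limma fit and cover the spread between libraries. Mc4r, the gene knocked out in MC/COL mice, had 0 reads in all HSC and CCl4-fib libraries and 4, 13 and 0 reads in the libraries labelled NASH-fib, so its level did not check the labels. HSCs had 7070 to 14894 scaled reads of the stellate marker Lrat against 95.4 to 458 in the sorted groups, and Col1a1 stood at 452 to 968 in HSCs, 8485 to 11375 in CCl4-fib and 3738 to 4729 in NASH-fib. These markers separated HSCs from the sorted groups. Col1a1 also did not overlap between CCl4-fib and NASH-fib, but no marker read here served as a check of these 2 labels. The column labels open with a prefix that was read as a date, and they do not say what it marks. By this prefix, 1 library of each group shares 1 date, and on no date do both groups of a comparison have more than 1 library. Differences within a date were therefore not tested, and the date entered as a term of an alternative fit. Fewer cells of a type and less RNA per cell cannot be told apart in such pools, which holds for every result below.

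Differences were tested with limma on log2(value + 1) over the 13651 genes that passed the filter, so fold changes are on that scale and understate the change of low genes. A gene was called when its log2 fold change was at least 1 in size and its Benjamini-Hochberg adjusted p was under 0.05. In CCl4-fib against HSCs, 5 of the 9 tested genes were called. Notch3 was higher, and Notch1, Notch4, Dll4 and Hes1 were lower. Of all genes tested, 16.2% were called higher and 11.7% lower in this comparison. In NASH-fib against HSCs, Notch3 was called higher and Notch1 lower, with 8.23% of all genes called higher and 4.3% called lower. Between NASH-fib and CCl4-fib, Dll4 was the 1 gene called, and it was higher in NASH-fib, where 4.97% of all genes were called higher and 5.66% lower. The libraries of both groups did not overlap for 6 of the 9 genes in CCl4-fib against HSCs (48.6% of all genes tested), for 4 in NASH-fib against HSCs (24.4%) and for 2 in NASH-fib against CCl4-fib (39.1%). The median log2 fold change of the 9 genes was -1.34 in CCl4-fib against HSCs, 0.45 in NASH-fib against HSCs and 1.14 in NASH-fib against CCl4-fib. Over all genes tested it was 0.18, -0.022 and -0.11 in the same order. The comparisons share their groups with each other, so they are not independent.

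**Figure D1:**
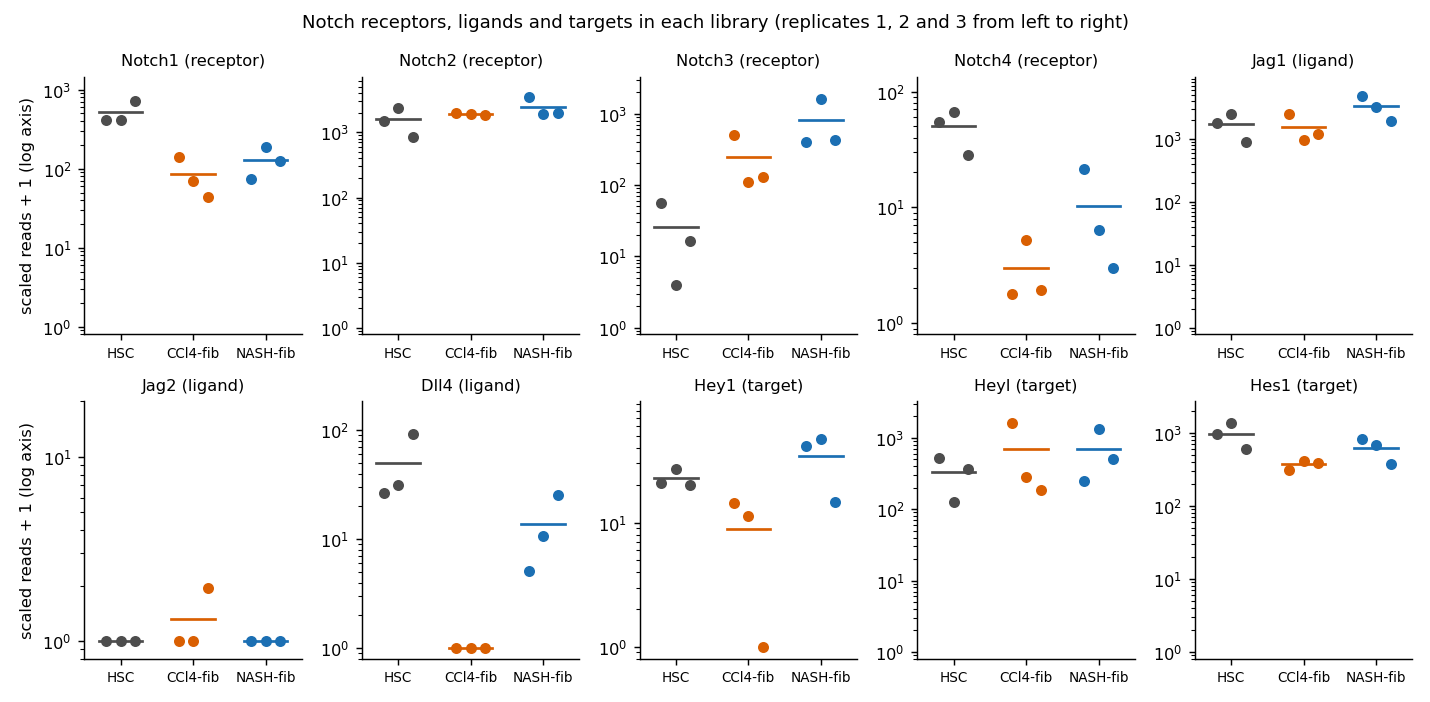
Scaled reads plus 1 (log axis, a range of its own in each panel) of the 10 genes in the 9 libraries, with replicates 1, 2 and 3 from left to right in each group and horizontal bars at the group means. Notch3 was lowest in the 3 HSC libraries, Notch1 was highest there, and Dll4 was at 0 in all 3 CCl4-fib libraries.

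The receptors changed in opposite directions. Notch3 RNA was higher in both fibroblast groups than in HSCs, Notch1 RNA was lower in both, Notch4 RNA was lower in CCl4-fib, and Notch2 RNA was not called in any comparison. Notch3 (NM_008716, chromosome 17, 32120893 to 32166852, minus strand) had 54.9, 2.91 and 15.5 scaled reads in HSC replicates 1, 2 and 3. The CCl4-fib libraries reached 509, 110 and 129, and the NASH-fib libraries 405, 1625 and 428. Every fibroblast library lay above every HSC library, while both fibroblast groups overlapped and each held 1 library far above its other two, CCl4-fib replicate 1 and NASH-fib replicate 2. The log2 fold change was 3.66 (SE 0.96, adjusted p = 0.0169, limma) in CCl4-fib against HSCs and 5.42 (SE 0.96, adjusted p = 0.0035, limma) in NASH-fib against HSCs. NASH-fib exceeded CCl4-fib by 1.76 (95% interval -0.36 to 3.87, limma adjusted p = 0.251), which did not pass the test. Without CCl4-fib replicate 1, the difference of CCl4-fib from HSCs was 2.97 and lost its call (limma adjusted p = 0.0761). The size of the change also rested on HSC replicates 1 and 2, with 47 and 2 reads. Leaving out replicate 1 gave 4.59 for CCl4-fib and 6.35 for NASH-fib, and leaving out replicate 2 gave 2.67 and 4.43. Without NASH-fib replicate 2 the value for NASH-fib was 4.76.

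Notch1 (NM_008714, chromosome 2, 26457902 to 26503822, minus strand) had 408, 414 and 720 scaled reads in HSCs. In CCl4-fib it had 140, 68.9 and 42.9, and in NASH-fib 73.4, 186 and 125. All HSC libraries stood above all fibroblast libraries, and the ranges of CCl4-fib and NASH-fib overlapped. Notch1 RNA fell by 2.71 on the log2 scale in CCl4-fib against HSCs (SE 0.52, adjusted p = 0.0032, limma), which is 6.56-fold. In NASH-fib against HSCs it fell by 2.04 (SE 0.52, adjusted p = 0.0249, limma). That second call was lost without HSC replicate 1 or 3 or NASH-fib replicate 1 or 3, with limma adjusted p between 0.0551 and 0.0925 and values between -2.18 and -1.69. It was also lost with the label date as a term (-2.06, limma adjusted p = 0.261).

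Notch4 (NM_010929, chromosome 17, 34564295 to 34588543, plus strand) was a low gene, with 53.8, 65.5 and 27.5 scaled reads in HSCs, or 46, 45 and 23 reads. CCl4-fib libraries held 1, 5 and 1 reads, and NASH-fib libraries 15, 6 and 2 reads, or 20.4, 5.34 and 1.97 scaled reads. HSC libraries were the 3 highest for this gene, followed by NASH-fib replicate 1. Notch4 fell by 4.16 on the log2 scale in CCl4-fib against HSCs (SE 0.83, adjusted p = 0.0041, limma). Against HSCs, NASH-fib differed by -2.67 (95% interval -4.50 to -0.84, limma adjusted p = 0.0631), which was not called, although it was without NASH-fib replicate 1 (-3.44, limma adjusted p = 0.0154).

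Notch2 (NM_010928, chromosome 3, 98013538 to 98150367, plus strand) had 1497, 2368 and 836 scaled reads in HSCs. The 3 CCl4-fib libraries lay close together at 1991, 1882 and 1818, and NASH-fib had 3481, 1908 and 1948. The groups overlapped in the comparisons with HSCs and with each other. The log2 fold changes of 0.40 (95% interval -0.52 to 1.32) in CCl4-fib and 0.71 (-0.21 to 1.63) in NASH-fib against HSCs did not pass the test (limma adjusted p = 0.497 and 0.381).

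**Figure D2:**
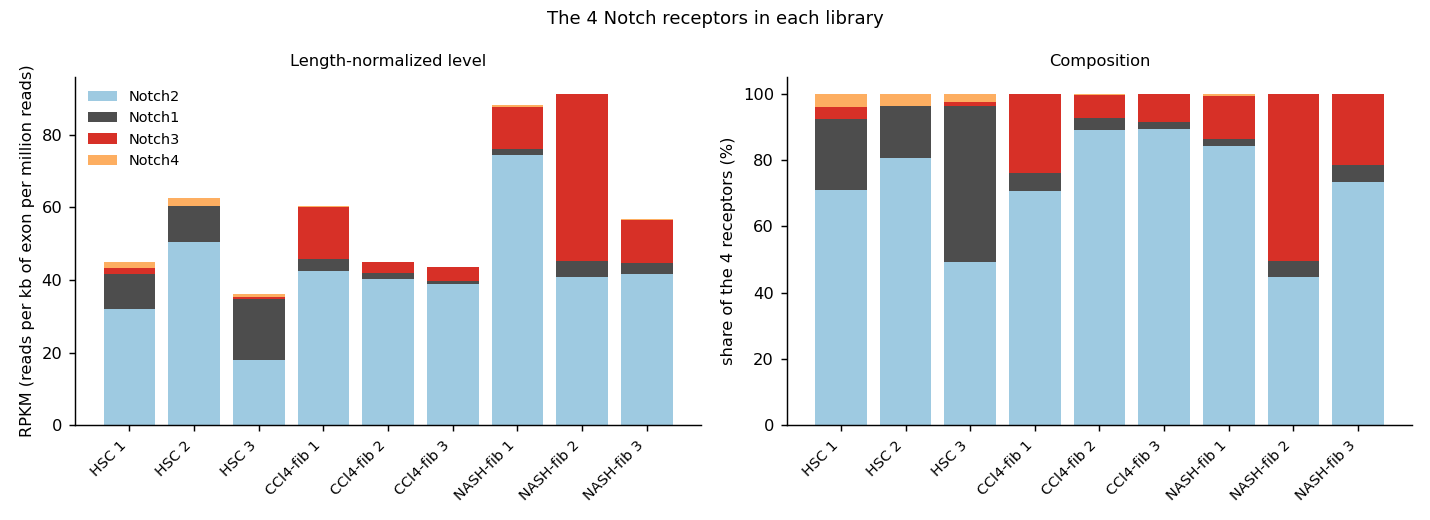
Level of the 4 receptors in each library as RPKM (left, stacked bars) and as a share of their sum in percent (right). Notch2 made up between 44.6% and 89.2% of the sum, while the Notch1 part is widest in the 3 HSC libraries and the Notch3 part in NASH-fib replicate 2.

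Divided by exon length, the receptors can be set beside each other within a library, and this composition does not depend on how libraries were scaled. Notch2 was the largest part in every library except for NASH-fib replicate 2, where Notch3 was larger. Notch1 was the next largest receptor in the HSC libraries and Notch3 in the other fibroblast libraries. The summed level of the 4 receptors was 48.0 ± 13.5 RPKM (reads per kb of exon, scaled to library reads; SD, n = 3) in HSCs, 49.6 ± 9.24 in CCl4-fib and 78.7 ± 19.1 in NASH-fib. Notch1 made up 28.0% ± 16.7 of that sum in HSCs, 3.81% ± 1.58 in CCl4-fib and 4.00% ± 1.77 in NASH-fib. The share of Notch3 was 1.60% ± 1.69 in HSCs, 13.0% ± 9.41 in CCl4-fib and 28.2% ± 19.6 in NASH-fib. Its share in HSCs did not overlap with that of either fibroblast group. The exact two-sided permutation test gave p = 0.1 for both, the smallest p that 3 libraries against 3 allow (adjusted over 6 share tests, p = 0.15). NASH-fib and CCl4-fib overlapped in this share (exact permutation p = 0.3, adjusted p = 0.3), and the gap of 15.2 percentage points between them shrank to 4.11 without NASH-fib replicate 2.

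Among the ligands, Jag1 was the abundant one in every library, Dll4 was low and absent from CCl4-fib at this depth, and Jag2 was not detectable in 8 of the 9 libraries. Jag1 (NM_013822, chromosome 2, 137081451 to 137116520, minus strand) had 1770, 2443 and 903 scaled reads in HSCs. The CCl4-fib libraries had 2443, 966 and 1190, and the NASH-fib libraries 4767, 3238 and 1953. NASH-fib held the 2 highest libraries of all, but its lowest library lay within the ranges of both other groups. Jag1 exceeded HSCs by 0.98 in NASH-fib (95% interval -0.13 to 2.10, limma adjusted p = 0.297), and NASH-fib exceeded CCl4-fib by 1.14 (0.03 to 2.25, limma adjusted p = 0.164). Neither passed the test, nor did the value of -0.16 in CCl4-fib against HSCs (limma adjusted p = 0.836), whose sign depended on the libraries used. It was 0.16 once HSC replicate 2 was left out, 0.11 once CCl4-fib replicate 2 was left out, and 0.027 with the label date as a term.

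Dll4 (NM_019454, chromosome 2, 119325784 to 119335666, plus strand) had 22, 21 and 76 reads in HSCs, or 25.7, 30.6 and 90.9 scaled reads. No read was found in any of the 3 CCl4-fib libraries, where the floor was a value of 2.60 on average. NASH-fib libraries held 3, 11 and 25 reads, or 4.08, 9.80 and 24.6 scaled reads. The 3 groups thus formed 3 steps without overlap, with CCl4-fib at 0, NASH-fib between and HSCs on top, although NASH-fib replicate 3 came close to HSC replicate 1. With CCl4-fib set at the floor, the mean of HSCs was at least 18.9-fold that of CCl4-fib, and the mean of NASH-fib at least 4.93-fold. These folds leave out the spread of the higher group, and NASH-fib replicate 1 itself held 3 reads, the floor. Both fitted differences from CCl4-fib were called (limma adjusted p = 0.00063 for HSCs and 0.0227 for NASH-fib). The second call was lost without any 1 of the CCl4-fib libraries or without NASH-fib replicate 3 (limma adjusted p between 0.0555 and 0.0828), and with the label date as a term (limma adjusted p = 0.0607). Dll4 passed the filter on low counts through its HSC libraries, and a filter over NASH-fib and CCl4-fib alone removed it. NASH-fib against HSCs differed by -1.93 (95% interval -3.64 to -0.22, limma adjusted p = 0.157), which was not called.

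Jag2 (NM_010588, chromosome 12, 112908590 to 112929495, minus strand) had 1 read, in CCl4-fib replicate 3, and 0 reads in the other 8 libraries, which allows up to 3 reads each, or 2.38 to 4.37 scaled reads. It was not tested. Per length, Jag1 made up 94.0% ± 6.75 of the 3 ligands in HSCs, 99.96% ± 0.063 in CCl4-fib and 99.1% ± 0.97 in NASH-fib. The Jag1 share did not overlap between CCl4-fib and either other group (exact permutation p = 0.1 for each, adjusted over 6 tests p = 0.15), while NASH-fib and HSCs overlapped (exact permutation p = 0.2, adjusted p = 0.24). The difference between NASH-fib and HSCs was 5.14 percentage points, and it was 1.25 without HSC replicate 3. For CCl4-fib against HSCs it was 5.96, and 2.07 without the same library.

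Of the 3 target genes, Hes1, a transcriptional repressor and a classical Notch target, was called lower in CCl4-fib than in HSCs. Hey1 and Heyl, related repressors, were not called in any comparison, and whether the targets differed from each other in their change was not tested. Hes1 (NM_008235, chromosome 16, 30065357 to 30067796, plus strand) had 982, 1354 and 611 scaled reads in the HSC libraries, 314, 413 and 385 in those of CCl4-fib and 825, 688 and 380 in those of NASH-fib. All CCl4-fib libraries lay below all HSC libraries, and NASH-fib overlapped with both. Hes1 fell by 1.34 on the log2 scale in CCl4-fib against HSCs (SE 0.41, adjusted p = 0.0323, limma), which is 2.53-fold. The call was lost without HSC replicate 1 or 2 and without any 1 of the CCl4-fib libraries, with limma adjusted p between 0.0755 and 0.111 and values between -1.42 and -1.07, and with the label date as a term (-1.24, limma adjusted p = 0.132). In NASH-fib the difference from HSCs was -0.64 (95% interval -1.53 to 0.26, limma adjusted p = 0.432).

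Hey1 (NM_010423, chromosome 3, 8663359 to 8667038, minus strand) was low, with 19.9, 26.2 and 19.1 scaled reads in HSCs and 40.8, 46.3 and 13.8 in NASH-fib. CCl4-fib libraries had 13.5, 10.2 and 0, each below all libraries of both other groups. CCl4-fib differed from HSCs by -2.05 (95% interval -4.16 to 0.07, limma adjusted p = 0.137), and NASH-fib exceeded CCl4-fib by 2.5 (0.38 to 4.61, limma adjusted p = 0.119). Neither passed the test. Both values rested on CCl4-fib replicate 3, the library with 0 reads, and were -0.82 and 1.27 without it. Without CCl4-fib replicate 1 they were -2.75 and 3.20. NASH-fib and HSCs overlapped and differed by 0.45 (-1.67 to 2.57, limma adjusted p = 0.88).

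Heyl (NM_013905, chromosome 4, 123233556 to 123249870, plus strand) had 512, 127 and 360 scaled reads in the HSC libraries, 1611, 284 and 187 in those of CCl4-fib and 250, 1326 and 497 in those of NASH-fib. The groups overlapped throughout. CCl4-fib replicate 1 and NASH-fib replicate 2 were the 2 highest libraries, which were also the highest of their groups for Notch3. The log2 fold changes against HSCs were 0.62 in CCl4-fib (95% interval -1.28 to 2.53, limma adjusted p = 0.613) and 0.94 in NASH-fib (-0.96 to 2.84, limma adjusted p = 0.631). Without CCl4-fib replicate 1 the first of them was -0.31. NASH-fib against CCl4-fib gave 0.31 (-1.59 to 2.22, limma adjusted p = 0.833), whose sign also turned with 1 library, to -0.32 once NASH-fib replicate 2 was dropped, and to -0.30 and -0.0023 once CCl4-fib replicate 3 or 2 was.

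**Figure D3:**
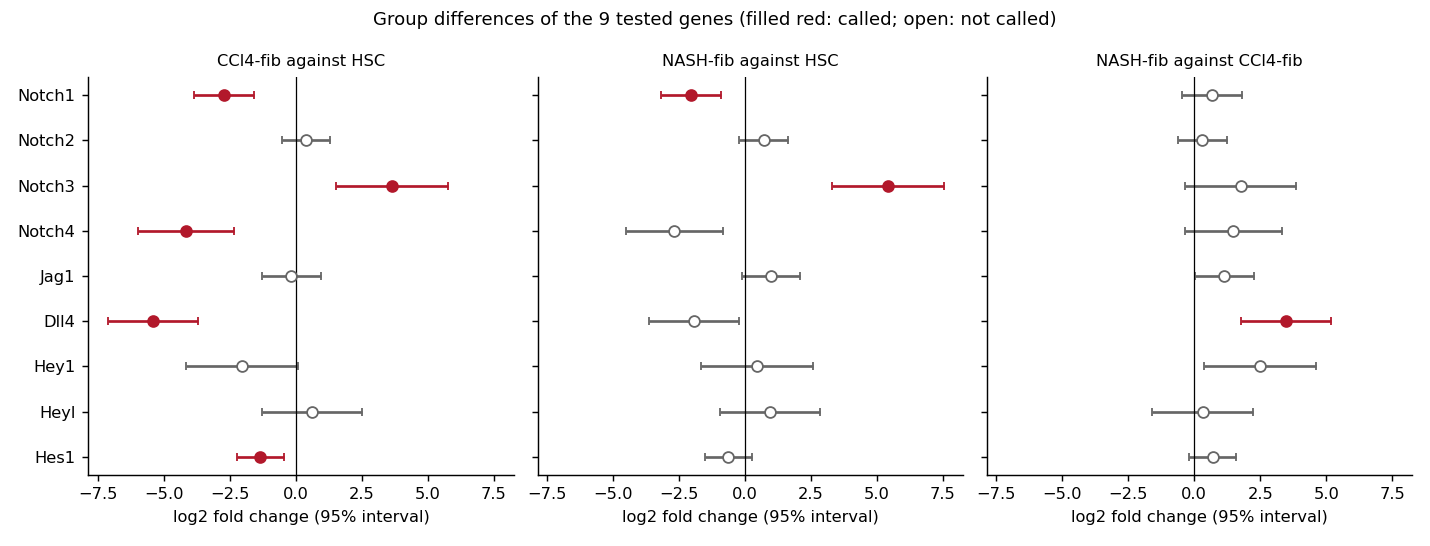
Log2 fold change with its 95% interval for the 9 tested genes in the 3 comparisons, on log2(value + 1), with filled red points for called genes and open points for the others. Notch3 lies on the positive side against HSCs in both fibroblast groups, and all 9 points lie on the positive side in NASH-fib against CCl4-fib, although Dll4 alone was called there.

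Per exon length, the order of the genes was led by Hes1 and Jag1 in every group. In HSCs the level was 152 ± 57.5 RPKM (SD, n = 3) for Hes1, 69.8 ± 31.6 for Jag1, 33.5 ± 16.4 for Notch2, 16.4 ± 9.59 for Heyl and 12.2 ± 4.22 for Notch1. Each of these overlapped with the next in the order, and all of them stood clear of Dll4 at 3.19 ± 2.36. Hey1 at 2.21, Notch4 at 1.66 and Notch3 at 0.69 followed, each overlapping with the one before it. In CCl4-fib, Jag1 at 62.7 ± 32.6 overlapped with Hes1 at 57.4 ± 7.90, which stood above Notch2 at 40.5 ± 1.87. Heyl at 34.3 ± 39.3 and Notch3 at 7.04 ± 6.36 came next, ahead of Notch1 at 1.98 ± 1.18, and each overlapped with its neighbours in the order. In NASH-fib, Jag1 at 136 ± 57.7, Hes1 at 97.7 ± 35.3, Notch2 at 52.2 ± 19.2, Heyl at 34.2 ± 27.9 and Notch3 at 23.2 ± 19.7 overlapped from each to the next. Notch3 stood above Hey1 at 3.42 ± 1.77 and Notch1 at 3.03 ± 1.34 in every NASH-fib library. Notch3 was thus the ninth gene of 10 in HSCs and the fifth in both fibroblast groups, while Notch1 was the fifth in HSCs, the sixth in CCl4-fib and the seventh in NASH-fib.

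The summed endothelial markers, like Notch1, Notch4 and Dll4, were highest in the 3 HSC libraries. The summed value of 10 sinusoidal and vascular endothelial markers ran from 6146 to 12501 scaled reads in HSCs, from 196 to 293 in CCl4-fib and from 1074 to 3486 in NASH-fib, the same order of groups as for Dll4. All 10 markers had over 3 reads in every HSC and NASH-fib library, against 7 of 10 in CCl4-fib, and none was at 0 throughout a group. Cdh5, the cadherin of endothelial junctions, had 548 to 948 scaled reads in HSCs, 2.55 to 3.97 in CCl4-fib and 40.1 to 192 in NASH-fib. Pecam1, an endothelial adhesion molecule, had 191 to 1035, 10.5 to 34.1 and 92.6 to 429 in the same order, and Stab2, a scavenger receptor of sinusoidal endothelium, 507 to 1368, 3.97 to 21.3 and 34.7 to 307. Pecam1 overlapped between HSCs and NASH-fib, with HSC replicate 2 at 191 below NASH-fib replicates 1 and 3 at 223 and 429. The HSC libraries had not been sorted for CD45 or GFP. Within HSCs, replicate 3 had the highest endothelial sum and the most Notch1 and Dll4, but the least Notch4, and replicate 2 had the lowest sum and the most Notch4. Within NASH-fib, replicate 3 had the highest endothelial sum and the most Dll4, while Notch1 was highest in replicate 2, which had the lowest sum, and Notch4 in replicate 1. The 9 macrophage markers followed the same order of groups, with sums of 3046 to 11264 in HSCs, 210 to 404 in CCl4-fib and 607 to 1936 in NASH-fib, although the CD45- gate of both fibroblast groups should remove macrophages. Ptprc, which encodes CD45, had 88.8 to 315 scaled reads in HSCs, 8.73 to 25.5 in CCl4-fib and 62.3 to 319 in NASH-fib. The part of endothelial and other cells in the values of Notch1, Notch4 and Dll4 was not tested.

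**Figure D4:**
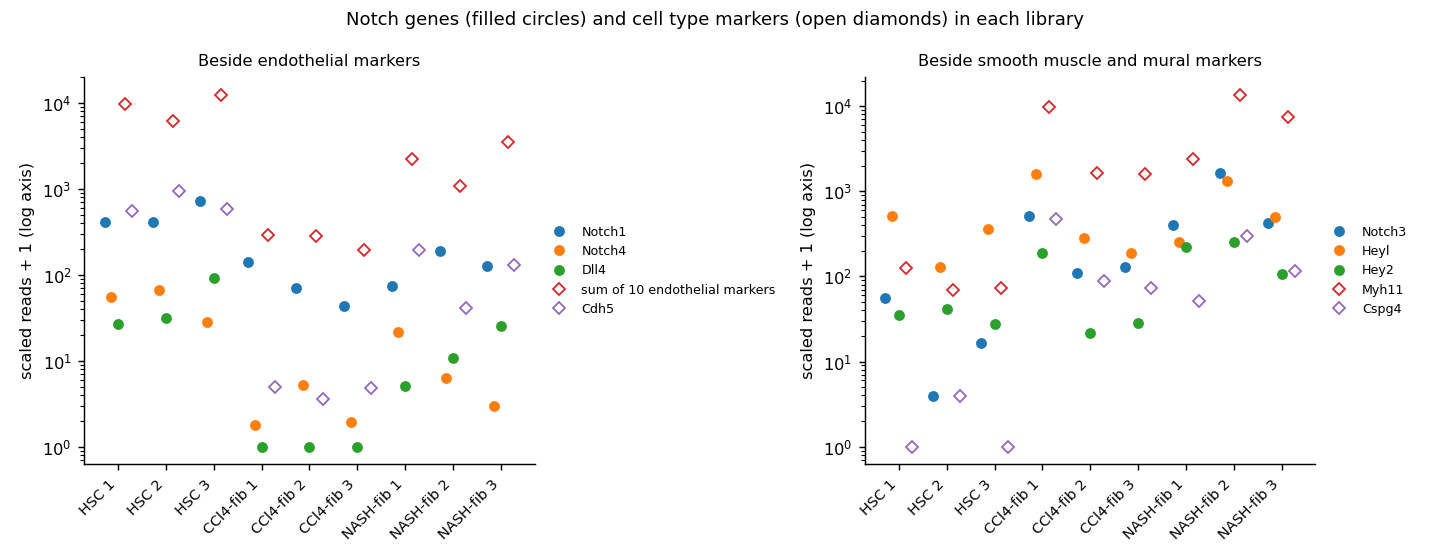
Scaled reads plus 1 (log axis) in the 9 libraries for Notch genes (filled circles) beside cell type markers (open diamonds). On the left, Dll4 and the endothelial sum were lowest in CCl4-fib, and on the right, CCl4-fib replicate 1 and NASH-fib replicate 2 were the highest of their groups for Notch3, Heyl, Myh11 and Cspg4.

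Of the smooth muscle and mural markers, Myh11 and Cspg4 were highest in the same library as Notch3 and Heyl within each fibroblast group. Acta2 was not in CCl4-fib. Myh11, the smooth muscle myosin heavy chain, had 125, 68.4 and 72.9 scaled reads in the HSC libraries, 9805, 1647 and 1610 in those of CCl4-fib and 2410, 13649 and 7507 in those of NASH-fib. Cspg4, the pericyte proteoglycan NG2, had 0, 2.91 and 0 in the HSC libraries, 478, 88.5 and 72.5 in those of CCl4-fib and 50.3, 298 and 114 in those of NASH-fib. In both sorted groups the library with the most Myh11 and Cspg4 was also the one with the most Notch3 and Heyl. Acta2, another such marker, had 6692, 5464 and 6985 in CCl4-fib, where replicate 3 was highest. In NASH-fib it had 5300, 8983 and 8846, where replicate 2 was highest. The full list of 10 such markers summed to 16751 to 29142 in HSCs, 15092 to 38855 in CCl4-fib and 39562 to 53360 in NASH-fib, where Des and other genes that stellate cells also use count towards the sum. Of the 10, 7 had over 3 reads in every HSC library and all 10 did in every fibroblast library. Whether Notch3 RNA came from such cells was not tested. The other target Hey2 followed the same libraries in CCl4-fib, with 190, 20.4 and 27.7 scaled reads, and had 219, 255 and 105 in NASH-fib against 33.9, 40.8 and 26.3 in HSCs. Hey2, Nrarp, Hes6, Cspg4, Cnn1 and Acta2 were singled out after their values were seen. The difference of 2.41 for Hey2 between NASH-fib and HSCs did not pass the test (limma adjusted p = 0.0656).

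Genes of other lineages differed between the groups as well. The summed values of 10 hepatocyte markers were 23387 to 41008 in HSCs, 2620 to 4113 in CCl4-fib and 8866 to 30482 in NASH-fib, with 1787 to 14897 scaled reads of Alb in NASH-fib. Cholangiocyte markers (9 genes) summed to 72.5 to 237, 3525 to 4824 and 6220 to 11856 in the same order, with Krt19 between 3.51 and 17.9, 771 and 2699, and 53.0 and 469. Epcam, of the same list, had 0 to 2.91, 0.85 to 7.94 and 20.6 to 66.6. Spp1 counts towards this sum and also towards that of the activated fibroblast markers. Lymphocyte and neutrophil markers (9 genes) summed to 133 to 906, 18.3 to 71.6 and 750 to 3097, and Cd3e, Ly6g and Nkg7 were at 0 throughout CCl4-fib. Quiescent stellate markers (10 genes) summed to 56402 to 62832 in HSCs and at most 32208 in a sorted library, activated fibroblast markers (10 genes) to 7740 to 14220 in HSCs and at least 30325 in a sorted library, and portal fibroblast and mesothelial markers (9 genes) to 616 to 907 in HSCs and at least 16041.

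Around the 10 genes, a list of 60 other genes of the pathway was read, of which 49 were tested. In CCl4-fib against HSCs, 3 of the 49 were called higher and 3 lower, beside 16.2% and 11.7% of all genes tested. In NASH-fib against HSCs, 0 were called higher and 1 lower (8.23% and 4.3% of all genes). There 7 of the 49 had an unadjusted p under 0.05 in limma. Of the 49, edgeR called 2 and DESeq2 4, beside 1576 and 2157 of all 13651 genes. In NASH-fib against CCl4-fib, 0 were called higher and 1 lower (4.97% and 5.66% of all genes). There 11 of the 49 had an unadjusted p under 0.05 in limma. Of the 49, edgeR called 1 and DESeq2 7, beside 1365 and 2679 of all 13651 genes. The share of all genes with such an unadjusted p was not determined. The median log2 fold changes of the 49 were -0.20, -0.13 and -0.009 in the order of the comparisons.

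Among these genes, Numb was the one called against HSCs in both fibroblast groups. Numb encodes an adaptor protein that inhibits Notch by promoting its endocytosis. It had 560, 665 and 545 scaled reads in the HSC libraries, 187, 242 and 179 in those of CCl4-fib and 175, 193 and 196 in those of NASH-fib, so that all 6 fibroblast libraries lay below all HSC libraries. It fell by 1.54 on the log2 scale in CCl4-fib (SE 0.31, adjusted p = 0.004, limma) and by 1.64 in NASH-fib (SE 0.31, adjusted p = 0.0048, limma), and kept both calls without any 1 library. With the label date as a term, the limma adjusted p for NASH-fib was 0.138.

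The other calls of CCl4-fib against HSCs were a protease, a ubiquitin ligase, a glycosylation enzyme, a co-repressor and a co-activator. Adam17, a protease that can cut Notch receptors, was higher by 1.51 (limma adjusted p = 0.0337), with 716, 794 and 779 scaled reads against 238, 191 and 417. Dtx2, a Deltex ubiquitin ligase, was higher by 3.14 (limma adjusted p = 0.0137), with 43.7, 90.2 and 42.9 against 2.34, 2.91 and 19.1. Ctbp1, a transcriptional co-repressor, was higher by 1.84 (limma adjusted p = 0.0452), with 193, 301 and 63.9 against 46.8, 33.5 and 49.0. Each of these 3 had its CCl4-fib libraries above all HSC libraries. Maml3, a Mastermind co-activator of the Notch complex, fell by 1.65 (limma adjusted p = 0.0361), with 71.4, 24.7 and 27.7 against 157, 125 and 81.3. Mfng, a Fringe enzyme that adds sugars to Notch receptors, had 1, 0 and 0 reads in CCl4-fib against 21, 6 and 23 in HSCs (limma adjusted p = 0.005), a ratio of 73.2 with an exact 95% counting interval of 12.6 to 2950 for the summed reads of each group. Mfng had 1, 3 and 11 reads in NASH-fib, where replicate 3 also had the highest endothelial sum. Ctbp1 was also the 1 gene of the list called between the fibroblast groups, with 10.9, 27.6 and 21.6 scaled reads in NASH-fib, lower by 2.98 than in CCl4-fib (SE 0.61, adjusted p = 0.0176, limma). Several of these calls were lost when 1 library was left out. Adam17 lost its call without HSC replicate 1 or 2 or any 1 of the CCl4-fib libraries (limma adjusted p 0.0848 to 0.104). Dtx2 did so without HSC replicate 1 or CCl4-fib replicate 2 (0.0543 and 0.0662), and its value was 3.96 without HSC replicate 3. Maml3 did so without HSC replicate 1 or 2, CCl4-fib replicate 2 or 3 or NASH-fib replicate 3 (0.051 to 0.138). Ctbp1 against HSCs did so without any HSC library, CCl4-fib replicate 1 or 2 or NASH-fib replicate 3 (0.061 to 0.188), and between the fibroblast groups without CCl4-fib replicate 1 or 2 or NASH-fib replicate 3 (0.056 to 0.0867). Without CCl4-fib replicate 3 its values were 2.48 and -3.62. With the label date as a term, Adam17, Ctbp1 and Maml3 lost their calls against HSCs (limma adjusted p = 0.107, 0.0827 and 0.137), and so did Ctbp1 between the fibroblast groups (0.0664). In CCl4-fib against HSCs, 3 calls among the pathway genes were left. Adam17 also lost its call in edgeR (adjusted p = 0.0518).

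Rbpj, through which all 4 receptors act on DNA, had 297, 185 and 287 scaled reads in the HSC libraries, 337, 261 and 332 in those of CCl4-fib and 347, 649 and 760 in those of NASH-fib. The NASH-fib libraries lay above all others, with NASH-fib replicate 1 only just above the highest CCl4-fib library. NASH-fib exceeded HSCs by 1.14 (95% interval 0.29 to 1.99, limma adjusted p = 0.0863) and CCl4-fib by 0.85 (-0.003 to 1.70, limma adjusted p = 0.175), and neither passed the test. DESeq2 called both (adjusted p = 0.0109 and 0.0351), and without NASH-fib replicate 1 limma gave 1.48 against HSCs (adjusted p = 0.0173).

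**Figure D5:**
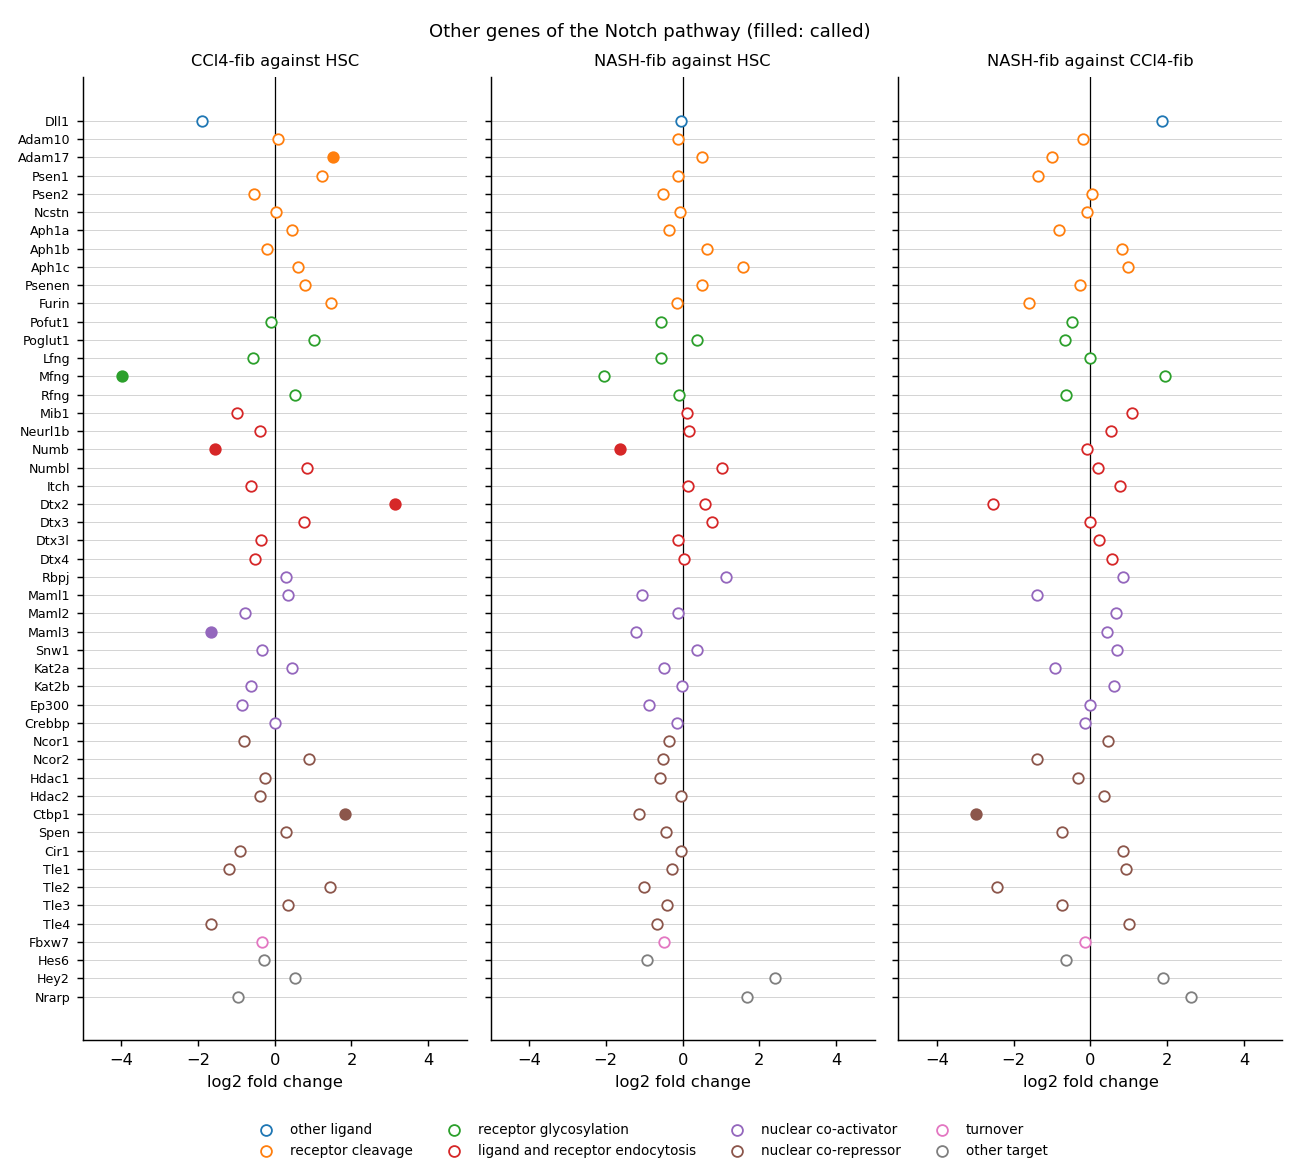
Log2 fold change of the 49 tested genes of the pathway list in the 3 comparisons, coloured by role, with filled points for called genes. Numb lies at -1.54 and -1.64 against HSCs, and Ctbp1 lies at 1.84 and -2.98 in the comparisons with CCl4-fib.

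For each of the 9 tested genes, the 3 genes with the most similar values over the 9 libraries were taken by Pearson's r of log2(value + 1), as a description over libraries that fall into 3 groups. The nearest to Notch3 were Parm1 (r = 0.979), Fxyd3 (0.976) and Synpo2 (0.968). Synpo2, a smooth muscle actin-binding protein, had a median of 32.3 scaled reads in HSCs, 153 in CCl4-fib and 811 in NASH-fib. Those nearest to Dll4 were Clec4g (0.978), AF251705 (0.976) and P2ry13 (0.976). Clec4g, a lectin of liver sinusoidal endothelial cells and one of the endothelial markers above, had a median of 4881 in HSCs, 35.7 in CCl4-fib and 436 in NASH-fib, and P2ry13 was at 0 in all CCl4-fib libraries like Dll4. For Notch1 they were Slc8b1 (0.976), Slco2b1 (0.958) and Ifitm1 (0.957), and for Notch4 Macf1 (0.99), Phf11b (0.982) and Vav3 (0.981). Jag1 had Epc1 (0.978), 9230114K14Rik (0.976) and C2cd2 (0.964), and Notch2 had Gm20199 (0.98), Camk2d (0.952) and Anxa1 (0.949). Hes1 had Hook3 (0.984), Itpr1 (0.982) and Dynll2 (0.981), and the other targets had lower values, with Clstn2 (0.939), Tmem252 (0.938) and Skida1 (0.935) for Hey1 and Wfdc6a (0.932), Zfp438 (0.907) and Trpv2 (0.892) for Heyl.

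Some values hold a further limit from the counting, which took reads of either strand. The exons of Notch1 overlap those of 0610009E02Rik and Gm13568, those of Notch3 overlap Gm17276, those of Dll4 overlap Gm14207, those of Adam17 overlap Iah1 and those of Numb overlap Gm46367, all on the opposite strand, and Notch2 overlaps Gm42820 on its own strand. Reads in the shared stretches cannot be told apart. The exons of Notch4, the Jagged genes and the 3 targets overlap no other gene in the annotation.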

How the data were processed

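The data were 9 RNA sequencing libraries, each amplified with the SMARTer kit from pooled cells and read as single-end reads. What the authors deposited is a normalized signal for each gene in each library. Per the submitters' processing notes, reads were called with CASAVA and aligned to mm10 with STAR, and per the file headers HOMER counted reads of either strand on RefSeq exons, capping a position at 3 reads and merging the transcripts of each gene, before a DESeq2 scaling over 10 libraries. The tenth is not among the 9 value columns, of which 0 were left unused. Reads were amplified and carry no molecular identifiers, so they are not independent molecules, and the limit per position can lower the values of highly covered short genes.

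The smallest step of a library's values is the worth of 1 read, and 100% of values were whole multiples of it (within 0.006), which set depth and floors. The test had been set as edgeR for counts and limma for scaled values, so limma 3.58.1 was used on log2(value + 1), as 1 fit of all 9 libraries whose prior variance follows the mean level, for genes kept by filterByExpr of edgeR 4.0.16 (minimum count 10). The Benjamini-Hochberg adjustment covered 13651 genes. The labels do not say whether the pools of a group came from separate mice or experiments, so p-values measure the spread between these libraries, which may be technical. Levels per exon length were compared between genes, and receptor and ligand shares by exact two-sided permutation tests. Promoters came from RefSeq (GRCm38.p6) and exon overlaps from GENCODE for the same build.

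The 10 genes, the 60 pathway genes and the marker lists were chosen with earlier results of these data known. Named were all 10 genes, each pathway gene called in any comparison, Rbpj, the 3 nearest genes of each tested gene, and defining markers. The values of the other marker genes are not reported here beyond the sums of their lists. Alternatives were edgeR, DESeq2 1.42.0, upper-quartile scaling, no filter, pseudocounts of 0.5 and 5, a fit on 2 groups, a replicate block, the label date as a term, reads not divided by length, and each library left out.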

Additional observations from a re-analysis of the deposited data

Results flagged for a closer look

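Of the 9 genes tested, Dll4 alone was called for a difference from HSCs that differed between the fibroblast groups. The test of this is the comparison of NASH-fib with CCl4-fib. Dll4 entered it only through its HSC libraries. When NASH-fib and CCl4-fib alone were fitted, the filter on low counts removed Dll4, so that it was not tested. The fitted log2 fold change was 3.48 (SE 0.77, adjusted p = 0.0227, limma), with 3, 11 and 25 reads in NASH-fib against 0 reads in each CCl4-fib library, and all 3 NASH-fib libraries were higher. Since CCl4-fib was at the floor, this fitted value depends on the pseudocount. With CCl4-fib set at the floor, the mean of NASH-fib was at least 4.93-fold higher, which leaves out the spread of NASH-fib. The summed endothelial markers ran from 196 to 293 in CCl4-fib and from 1074 to 3486 in NASH-fib, and their part in the difference was not tested.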

How the results depend on the processing

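Over 858 refits of 48 differences of named genes, 847 kept the direction, and 29 differences kept both their direction and their side of the threshold in all of them. Directions that turned were those of differences that were not called. Jag1 in CCl4-fib against HSCs became 0.027 with the label date as a term, 0.16 without HSC replicate 2 and 0.11 without CCl4-fib replicate 2, and Heyl there became -0.31 without CCl4-fib replicate 1. In NASH-fib against CCl4-fib, Heyl became -0.0023 and -0.30 without CCl4-fib replicates 2 and 3 and -0.32 without NASH-fib replicate 2, and Numb, at -0.096, became 0.076 with edgeR, 0.060 with DESeq2, 0.0069 with upper-quartile scaling and 0.038 without CCl4-fib replicate 2. With 1 library left out, the values that turned ran from -0.56 to 0.16 for Jag1 and -0.31 to 1.24 for Heyl in CCl4-fib against HSCs, and from -0.32 to 1.25 for Heyl and -0.18 to 0.038 for Numb in NASH-fib against CCl4-fib.

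The calls among the 10 genes numbered 5 in CCl4-fib against HSCs (3 to 5 with 1 library left out), 2 in NASH-fib against HSCs (1 to 2) and 1 in NASH-fib against CCl4-fib (0 to 1). The label date as a term left 1 in NASH-fib against HSCs and 0 in NASH-fib against CCl4-fib, where a pseudocount of 5 and a fit on those 2 groups alone, whose filter removed Dll4, also left 0. In each of these 3 fits 3 genes had an unadjusted p under 0.05 in limma. Of the 10 genes edgeR and DESeq2 each called 1, beside 1365 and 2679 of all 13651 genes. With the pseudocount of 5, Notch4 was called in NASH-fib against HSCs (-2.07, limma adjusted p = 0.0275). With the date, Hes1 in CCl4-fib against HSCs and Notch1 in NASH-fib against HSCs were lost (limma adjusted p = 0.132 and 0.261). Counts of other pathway genes called ran from 2 to 9, 1 to 4 and 0 to 2 with 1 library left out, in the order of the comparisons above. With 1 library left out, the difference in the Notch3 share of the receptors ran from 6.03 to 14.5, 15.6 to 34.2 and 4.11 to 22.8 percentage points, and that in the Jag1 share of the ligands from 2.07 to 7.99, 1.25 to 7.17 and -1.18 to -0.27.

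With the replicate number as a replicate block, the count in NASH-fib against HSCs was 1, since Notch1 had a limma adjusted p of 0.0623, and Ctbp1 and Maml3 lost their calls in CCl4-fib against HSCs (0.0696 and 0.0589). The numbers were not shown to pair the libraries. Correlations of same-numbered libraries ran from -0.473 to 0.514, and the own number correlated best in 5 of 18 cases. The highest correlation between groups was 0.645, for HSC replicate 2 and NASH-fib replicate 1, which share a label date and have the fewest reads. CCl4-fib replicate 1, of the same label date, gave -0.0721 and -0.127 with them. Another scaling moved the median log2 fold change of all genes by -0.165 with TMM in CCl4-fib against HSCs and by 0.245 in NASH-fib against CCl4-fib, and no member changed direction under the scalings tried. The cause of these changes was not tested. Genes with few reads, Notch4, Dll4, Hey1 and Mfng, are limited most by depth.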
